A study of Mus musculus with 5 samples.

Results

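Genes of lipid uptake, lipid storage and fat cell transcription were followed in primary mouse lung fibroblasts given TGF-β1 or vehicle. They were taken by name from the count table through the GENCODE M21 symbols of its Ensembl IDs: Lpl, Cd36, Fabp4, Fabp5, Plin2, G0s2, Pparg, Cebpa, Cebpb and Cebpd, 10 of 55335 IDs. All 10 were among the 16380 genes tested. The series holds 2 vehicle libraries and 3 libraries from cells kept with TGF-β1 (5 ng/mL) for 24 h. The labels give no strain, sex, age or genotype for the mice, and no passage of the cells. They call the replicates biological without saying whether separate animals or separate dishes are meant, so a p-value here reflects the spread among these 5 libraries alone, which may be technical.

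Lipofibroblasts are fibroblasts of the alveolar wall that hold neutral lipid droplets beside the type II epithelial cells they supply. Lipoprotein lipase and the scavenger receptor CD36 bring fatty acids in, fatty acid binding proteins carry them through the cytosol, and perilipin 2 coats the droplet into which they are packed as triglyceride. In fat cells, C/EBPβ and C/EBPδ act early and switch on PPARγ and C/EBPα, which then drive the genes of lipid storage. TGF-β1 is known to inhibit fat cell formation in culture and to turn lung fibroblasts into matrix-producing myofibroblasts.

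Libraries held 34283288 to 43163967 counts, and Ccn2, a direct target of TGF-β signalling, went from 1396.5 ± 56.9 to 3590.0 ± 167 CPM (SD, n = 2 and 3; log2 ratio 1.36), higher in the libraries labelled TGF-β1. Levels are CPM, a gene's counts over the library's total on a common scale, adjusted with TMM, a correction for library composition. The log2 ratio is the fitted log2 fold change of TGF-β1 over vehicle, given with its standard error (SE), and adjusted p-values are from edgeR's quasi-likelihood test over all 16380 genes. TGF-β1 replicate 3 stood apart from the other TGF-β1 libraries on the second principal component, at 35.9 against −10.6 and −24.5 (11.4% of the variance).

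With TGF-β1, 5 of the 10 genes were lower, 1 was higher and 4 did not pass at an adjusted p under 0.05. Over all genes tested 23.2% were lower and 21.3% were higher, or 44.5% in either direction. The genes that fell were Lpl, Cd36, Fabp4, Cebpd and Cebpb, and the one that rose was Plin2. Of the 10, 4 were lower by at least 2-fold, against 7.74% of all genes tested. Lpl and Cd36, 2 of the 10, were lower by at least 4-fold, against 2.74%. These 10 genes were chosen with earlier results of these data known. The vehicle and TGF-β1 libraries did not overlap for 6 genes in the lower direction (33.0% of all genes) and 1 in the higher (31.6%), and overlapped for the other 3. The median log2 ratio of the 10 was −0.44, against 0.00 over all genes tested. In these bulk samples fewer cells of a type and less RNA per cell cannot be told apart, and most macrophage markers, all mesothelial markers and 6 of 10 fibroblast markers, given at the end, were lower with TGF-β1.

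**Figure D1:**
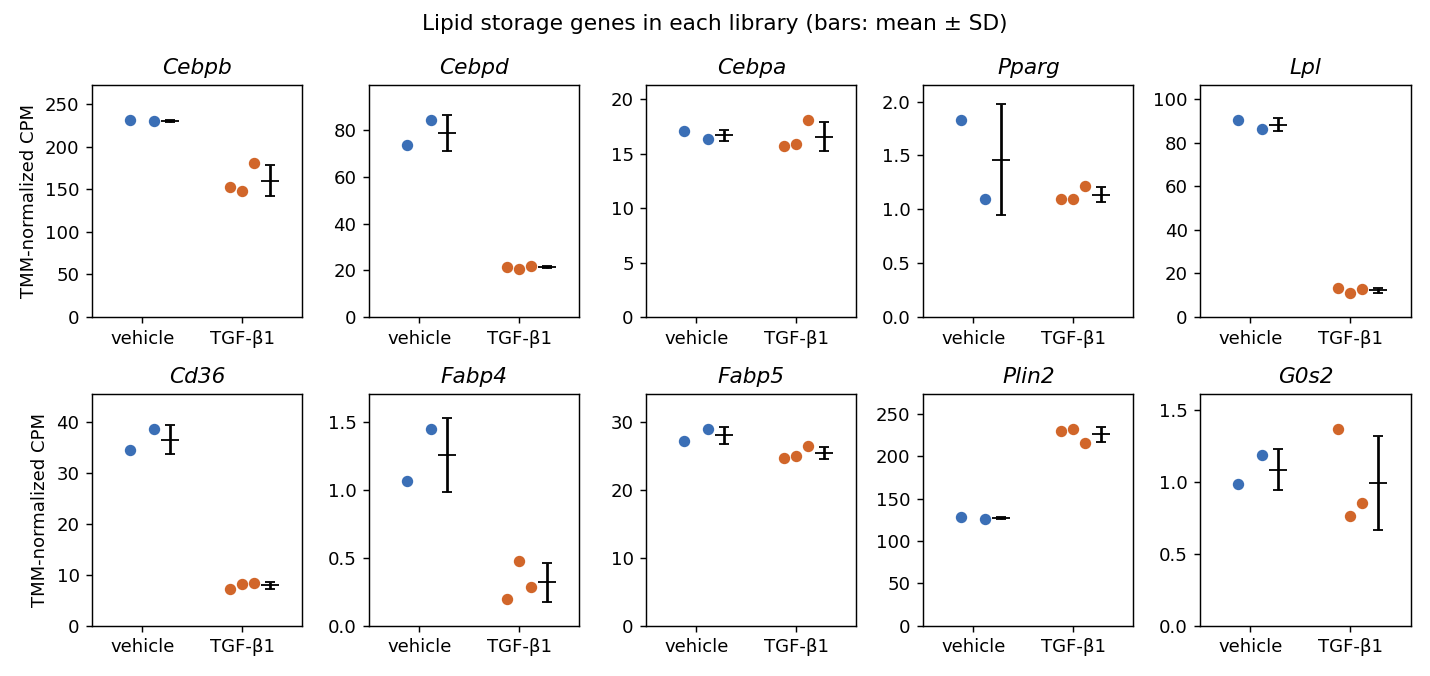
Level of each of the 10 lipid storage genes in TMM-normalized CPM (vertical axes from 0, own scale per gene) in the 2 vehicle and 3 TGF-β1 libraries, with mean ± SD beside the points. Lpl lies at 86.1 to 90.2 CPM with vehicle and 10.996 to 13.2 CPM with TGF-β1, Plin2 lies higher with TGF-β1, and the groups overlap for Pparg, Cebpa and G0s2.

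Sequence at the start of 3 of these genes is shown first, because Cd36 and Plin2, which serve the same lipid pathway, moved in opposite directions, and Cebpb is the most abundant of the C/EBP genes here. Each line is a RefSeq promoter window of GRCm38.p6, from 250 bases before to 50 bases after an annotated start, read 5′ to 3′ on the gene's strand. The Cd36 window lies inside the GENCODE gene model, which begins further upstream. Capitals mark AGGTCA, the core bound by nuclear receptors such as PPARγ with its partner RXR, CAGAC, a box bound by SMAD proteins, and TATAAA, the TATA box, on either strand.
Cd36, chr5:17835847-17836146, minus strand: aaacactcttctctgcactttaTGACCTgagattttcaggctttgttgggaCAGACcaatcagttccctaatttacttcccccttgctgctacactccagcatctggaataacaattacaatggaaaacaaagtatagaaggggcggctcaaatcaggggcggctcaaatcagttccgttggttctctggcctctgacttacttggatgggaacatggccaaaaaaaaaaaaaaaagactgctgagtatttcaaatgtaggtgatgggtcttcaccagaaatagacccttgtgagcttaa
Plin2, chr4:86670010-86670309, minus strand: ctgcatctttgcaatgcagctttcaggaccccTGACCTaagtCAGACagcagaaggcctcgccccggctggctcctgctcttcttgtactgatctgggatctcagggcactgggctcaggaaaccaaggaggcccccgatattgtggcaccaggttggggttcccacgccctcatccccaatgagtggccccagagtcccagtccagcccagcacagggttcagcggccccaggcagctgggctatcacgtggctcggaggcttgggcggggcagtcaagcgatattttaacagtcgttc
Cebpb, chr2:167688665-167688964, plus strand: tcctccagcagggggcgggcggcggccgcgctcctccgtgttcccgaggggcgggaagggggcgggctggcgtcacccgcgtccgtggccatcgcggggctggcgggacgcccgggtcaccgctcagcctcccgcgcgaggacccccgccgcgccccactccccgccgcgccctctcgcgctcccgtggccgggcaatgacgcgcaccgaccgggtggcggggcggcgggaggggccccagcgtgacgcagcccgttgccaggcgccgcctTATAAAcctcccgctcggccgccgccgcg

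The Cd36 and Plin2 windows each held 1 AGGTCA core, as its complement, beginning 228 and 218 bases before the start, and 1 CAGAC box, beginning 199 and 208 bases before it. The Cebpb window held neither and had a TATA box beginning at base 22 after the annotated start. Of 32851 such windows in the RefSeq table, 16.3% held AGGTCA, 49.6% held CAGAC and 13.6% held TATAAA on either strand, so these short matches are frequent. By symbol, 8 windows of 6 genes were matched (Cd36, Plin2, Cebpb, Cebpa, G0s2 and Pparg, with 3 starts for Pparg). Of these 8, 4 held AGGTCA, 3 held CAGAC and 3 held TATAAA. The full PPAR element searched for was AGGTCA repeated on the same strand with 1 base between the copies. It was in 0 of the 8 windows and in 0.0396% of all windows. The C/EBP element TTGCNNCAA was in 0 of the 8 and in 2.08% of all. Only exact matches inside these windows were sought, and both elements are rare, so 0 of 8 does not show that the genes lack them. G and C made up 60.7% of the Plin2 window and 80.7% of the Cebpb window, above the median of 52.7% over all windows, and the Cd36 window was below it.

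Lpl, the enzyme that frees fatty acids from circulating triglyceride, had the largest decrease of the 10 (ENSMUSG00000015568 on chromosome 8, 68880491 to 68907448 of GRCm38, plus strand). It was at 90.2 and 86.1 CPM with vehicle and at 13.2, 10.996 and 12.7 CPM with TGF-β1. Both vehicle libraries lay far above all 3 TGF-β1 libraries, and each group was tight. The means were 88.2 ± 2.93 and 12.3 ± 1.16 CPM (SD, n = 2 and 3), a 7.16-fold decrease (log2 ratio −2.84, SE 0.074, adjusted p = 4.87e-09). In order of decrease it was gene 194 of the 16380 tested.

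Cd36, the membrane receptor for fatty acids and oxidized lipoproteins, followed (ENSMUSG00000002944 on chromosome 5, 17781690 to 17888801, minus strand). Its levels were 34.5 and 38.7 CPM with vehicle and 7.13, 8.28 and 8.40 CPM with TGF-β1. The groups did not overlap, and the means of 36.6 ± 2.91 and 7.94 ± 0.700 CPM gave a 4.61-fold decrease (log2 ratio −2.21, SE 0.094, adjusted p = 1.2e-07).

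The genes that act around the lipase and the receptor were more often higher than lower, while over all genes tested 21.3% were higher and 23.2% lower. Of 18 listed lipase partners, lipoprotein receptors and fatty acid transporters, 14 were tested, 7 rose, 1 fell and 6 did not pass, with a median log2 ratio of 0.25. The lower gene was Slc27a4, a fatty acid transporter (from 59.7 to 53.8 CPM, log2 ratio −0.15), and this count was 0 when any 1 library was left out. Angptl4, a secreted inhibitor of lipoprotein lipase and a known PPAR target, rose from 39.1 ± 0.00811 to 86.5 ± 3.56 CPM (log2 ratio 1.15, adjusted p = 1.88e-07). In single libraries it was at 39.1 and 39.1 CPM with vehicle and 87.4, 89.6 and 82.6 CPM with TGF-β1. The lipoprotein receptor gene Lrp1 rose from 2106 ± 46.0 to 2646 ± 31.6 CPM (log2 ratio 0.33). Gpihbp1, which anchors the lipase on capillary endothelium, was at 0 CPM with vehicle and 0.0159 CPM with TGF-β1 and was not tested.

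The fatty acid binding proteins Fabp4 and Fabp5, which lie near each other on chromosome 3, differed in level and in change. Fabp4, the fat cell and macrophage form (ENSMUSG00000062515, 10204088 to 10208576, minus strand), was scarce, with 38 and 61 counts with vehicle and 8, 20 and 11 counts with TGF-β1. These were 1.07 and 1.45 CPM against 0.199, 0.476 and 0.284 CPM. The groups did not overlap, and the log2 ratio was −1.96 (SE 0.420, 95% interval −2.91 to −1.01, adjusted p = 0.00425). Its call was lost without vehicle replicate 2 (log2 ratio −1.72, adjusted p = 0.0605).

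Fabp5, the broadly expressed form (ENSMUSG00000027533, 10012548 to 10016607, plus strand), was at 27.2 and 29.0 CPM with vehicle and 24.8, 25.0 and 26.5 CPM with TGF-β1. The TGF-β1 libraries all lay below the vehicle libraries by a small margin, and the log2 ratio of −0.14 did not pass (95% interval −0.29 to 0.01, adjusted p = 0.109). With library totals in place of TMM it was −0.24 and passed (adjusted p = 0.015). Fabp5 has 5 processed pseudogenes with at least 90% identity over at least 200 bases. The closest, Gm6166, matches over 409 bases at 98.3% identity and held 24 to 50 counts per library against 968 to 1220 for Fabp5, so a small part of its count is uncertain.

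Among 14 other lipid-binding proteins of the cytosol, 6 were tested, of which 2 rose, 1 fell and 3 did not pass, and 7 of the 14 had 0 counts in every library, Fabp1 and Fabp2 of liver and gut among them. Crabp2, which carries retinoic acid, rose from 1.88 ± 0.0391 to 8.49 ± 0.835 CPM (log2 ratio 2.17). Dbi, an acyl-CoA binding protein, was the lower one at −0.21, and that count was 0 without vehicle replicate 1, TGF-β1 replicate 1 or TGF-β1 replicate 2.

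Plin2, the droplet coat protein that is stabilized by stored lipid, was the one gene of the 10 that rose (ENSMUSG00000028494 on chromosome 4, 86648386 to 86670060, minus strand). It was at 128 and 126 CPM with vehicle and at 229.8, 232 and 216 CPM with TGF-β1. Every TGF-β1 library lay above both vehicle libraries, with means of 127 ± 0.936 and 226 ± 8.64 CPM, a 1.78-fold increase (log2 ratio 0.83, SE 0.040, adjusted p = 2.83e-07). It kept this direction and passed under all 12 alternatives, at 0.73 to 0.86. A pseudogene, Gm12551, that matches it over 416 bases at 90.1% identity held 0 to 19 counts per library against 4550 to 9757 for Plin2.

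Beside Plin2, genes of the droplet machinery were called about as often as all genes were. Of 17 listed coat and biogenesis genes 9 were tested, 2 rose, 2 fell and 5 did not pass, with a median of 0.08. Without vehicle replicate 2 the higher count was 1, and with library totals it was 0. Bscl2, encoding the droplet biogenesis protein seipin, fell from 39.7 ± 1.97 to 26.7 ± 2.46 CPM (log2 ratio −0.57), and Plin3, the widely expressed perilipin, from 63.8 ± 1.21 to 53.0 ± 0.979 CPM (log2 ratio −0.27). Tmem159, encoding a partner of seipin, rose from 27.4 ± 0.926 to 33.3 ± 1.91 CPM (log2 ratio 0.28), a call lost without vehicle replicate 2 (adjusted p = 0.0713) and with library totals (adjusted p = 0.0518). The perilipins of fat cells and oxidative tissue, Plin4 and Plin5, had 0 counts in all 5 libraries, and Plin1 was at 0.0238 CPM with vehicle and 0 with TGF-β1.

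G0s2, which inhibits the triglyceride lipase ATGL, was scarce (ENSMUSG00000009633 on chromosome 1, 193272161 to 193273217, minus strand). It had 35 and 50 counts with vehicle and 55, 32 and 33 counts with TGF-β1, or 0.983 and 1.19 CPM against 1.37, 0.762 and 0.853 CPM. The groups overlapped, with TGF-β1 replicate 1 the highest of all 5 libraries, and the log2 ratio of −0.13 had a 95% interval of −0.90 to 0.63 (adjusted p = 0.786).

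The lipases that G0s2 acts on or works beside changed in both directions. Of 11 listed lipolysis genes 8 were tested, 2 rose, 3 fell and 3 did not pass, with a median of −0.21, and with library totals 6 were lower. Pnpla2, which encodes ATGL, fell from 38.6 ± 2.39 to 28.7 ± 1.99 CPM (log2 ratio −0.43, adjusted p = 0.00115). Lipe, the hormone-sensitive lipase, fell from 7.38 ± 0.262 to 4.19 ± 1.07 CPM (log2 ratio −0.82), which no longer passed without vehicle replicate 1 (adjusted p = 0.0537) or replicate 2 (adjusted p = 0.0704). Mgll, which cleaves the last fatty acid from monoglyceride, rose from 123 ± 0.334 to 172 ± 3.56 CPM (log2 ratio 0.48, adjusted p = 4.99e-06).

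A list of enzymes of triglyceride synthesis also split, with 6 of 16 tested genes higher, 7 lower and 3 not passing, and a median of 0.01. Among the 6 is Soat1, at 0.14, which makes cholesteryl esters and not triglyceride. Among the lipins, which make diglyceride, Lpin3 rose from 5.99 ± 0.571 to 19.6 ± 1.61 CPM (log2 ratio 1.71) and Lpin1 fell from 27.1 ± 0.602 to 15.9 ± 0.851 CPM (log2 ratio −0.77). Gk, glycerol kinase, fell from 25.9 ± 2.06 to 15.6 ± 0.908 CPM (log2 ratio −0.73). Of the enzymes of the final step, Dgat1 went from 18.6 to 24.3 CPM and Dgat2 from 4.63 to 2.95 CPM, both past the threshold (log2 ratio 0.39 and −0.65).

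**Figure D2:**
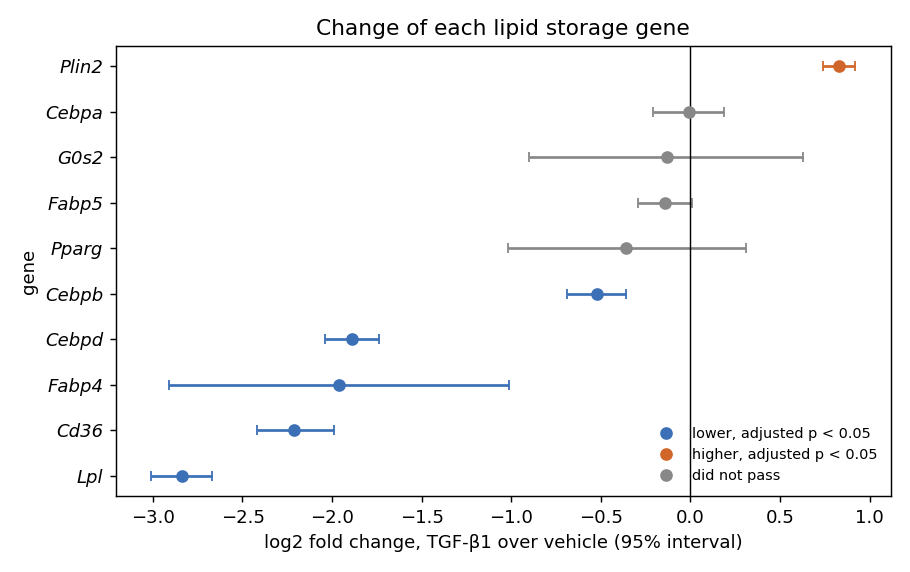
Log2 fold change of each of the 10 lipid storage genes, TGF-β1 over vehicle, with its 95% interval from the edgeR fit (points and bars, coloured by call at an adjusted p of 0.05). Lpl, Cd36, Fabp4, Cebpd and Cebpb lie below 0, Plin2 lies above, and the intervals of Pparg and G0s2 are wide while that of Cebpa spans −0.21 to 0.19.

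Among the transcription factors, the early-acting C/EBP genes fell and the late-acting ones did not pass. Cebpd (ENSMUSG00000071637 on chromosome 16, 15887286 to 15891031, plus strand) was at 73.5 and 84.3 CPM with vehicle and at 21.3, 20.8 and 21.8 CPM with TGF-β1. The 3 TGF-β1 libraries were nearly equal and lay far below both vehicle libraries, and the means of 78.9 ± 7.63 and 21.3 ± 0.520 CPM gave a 3.71-fold decrease (log2 ratio −1.89, SE 0.066, adjusted p = 3.15e-08).

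Cebpb (ENSMUSG00000056501 on chromosome 2, 167688915 to 167690418, plus strand) fell less, from 231 and 230.1 CPM to 152, 148 and 181 CPM. TGF-β1 replicate 3, the library that stood apart, was nearest to the vehicle libraries but still below both (log2 ratio −0.62 without it), and the means of 231 ± 0.865 and 160.5 ± 18.2 CPM gave a 1.44-fold decrease (log2 ratio −0.52, SE 0.074, adjusted p = 0.000377). Exons of both genes overlap another gene on the opposite strand, Spidr over 562 bases for Cebpd and Tmem189 over 312 bases for Cebpb. Whether the counts used strand is not given in the sources used here, so these values are uncertain by the reads in the overlap. Spidr went from 16.7 ± 0.555 to 15.7 ± 1.06 CPM (log2 ratio −0.08, adjusted p = 0.478) and Tmem189 from 68.4 ± 5.49 to 74.1 ± 1.20 CPM (log2 ratio 0.11, adjusted p = 0.129), which passed as higher without vehicle replicate 2 (0.20, adjusted p = 0.037).

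Cebpa (ENSMUSG00000034957 on chromosome 7, 35119293 to 35121928, plus strand) was at 17.0 and 16.3 CPM with vehicle and at 15.7, 15.9 and 18.1 CPM with TGF-β1. The groups overlapped, and its log2 ratio of −0.01 had a 95% interval of −0.21 to 0.19 (SE 0.090, adjusted p = 0.937). Pparg (ENSMUSG00000000440 on chromosome 6, 115360951 to 115490399, plus strand) had few reads, 65 and 46 counts with vehicle and 44, 46 and 47 counts with TGF-β1. In CPM these were 1.83 and 1.09 against 1.09, 1.09 and 1.22. Vehicle replicate 1 was the highest of the 5 libraries and vehicle replicate 2 the lowest, level with TGF-β1 replicates 1 and 2, and the log2 ratio of −0.36 did not pass (95% interval −1.02 to 0.31, adjusted p = 0.368). Without vehicle replicate 1 it was 0.05. The gene-level counts do not separate the Pparg isoforms that start at the 3 annotated promoters.

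Of the remaining C/EBP family genes, Cebpg and Ddit3 passed as higher, with log2 ratios of 0.51 and 0.44, and Cebpe was too scarce to be tested. Cebpz, which was listed with them for its name but encodes a CCAAT-binding protein of another kind, was also higher at 0.28. Cebpg, a partner that lacks an activation domain, rose from 50.8 ± 0.178 to 72.1 ± 7.81 CPM (adjusted p = 0.000904). Ddit3, the stress-induced inhibitor CHOP, was at 29.2 and 28.3 CPM with vehicle and at 44.3, 43.3 and 29.8 CPM with TGF-β1. Replicate 3 was thus close to the vehicle libraries, and the call was lost without any 1 of vehicle replicates 1 and 2 and TGF-β1 replicates 1 and 2 (adjusted p of 0.0806 to 0.175). Without vehicle replicate 2, 1 of the 3 genes, Cebpg, passed. Exons of Ddit3 and Cebpz overlap Mars and Cebpzos on the opposite strand, and their values are uncertain for that reason.

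The genes that work with PPARγ and the C/EBP proteins to promote fat cell formation were lower more often than higher, with 3 of 19 tested genes higher, 7 lower and 9 not passing, and a median of −0.12. The higher count was 1 without vehicle replicate 1, 0 without vehicle replicate 2 and 0 with library totals. Zfp467, a zinc finger protein that promotes fat cell fate, fell from 25.1 ± 0.487 to 8.61 ± 1.72 CPM (log2 ratio −1.54, adjusted p = 2.15e-05). Stat5a fell from 13.8 ± 1.91 to 8.06 ± 0.425 CPM (log2 ratio −0.77) and is uncertain, as its exons overlap the far more abundant Stat3. Klf4, an early inducer of Cebpb in fat cell precursors, fell from 24.4 ± 1.63 to 16.5 ± 3.62 CPM (log2 ratio −0.57), a call lost without vehicle replicate 2 (adjusted p = 0.107). Rxra, encoding a partner of PPARγ, went from 51.5 to 40.8 CPM and was lower (log2 ratio −0.34). Another RXR gene, Rxrb, went from 41.9 to 48.1 CPM and was higher (log2 ratio 0.20, adjusted p = 0.0354). The other higher genes were Klf9 (log2 ratio 0.30) and Nr1h3 (log2 ratio 0.57). Ppard, the more abundant PPAR gene here, went from 44.5 to 48.0 CPM and did not pass.

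Of 14 genes listed as inhibitors of fat cell formation, 3 rose, 4 fell and 7 did not pass, with a median of 0.04. Klf2, which represses Pparg, fell from 23.0 ± 1.57 to 8.30 ± 3.86 CPM (log2 ratio −1.46), with TGF-β1 replicate 3 lowest at 3.90 CPM. Tcf7l1, a repressor in the WNT pathway, fell from 24.9 ± 1.91 to 14.99 ± 1.12 CPM (log2 ratio −0.73). It is counted among the 4 that fell, but its place in a list of inhibitors is uncertain. Hes1, a repressor in the Notch pathway, rose from 32.3 ± 0.214 to 55.9 ± 8.13 CPM (log2 ratio 0.79).

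Known targets of the PPAR family, listed apart from the 10 lipid storage genes, were mostly lower although Pparg itself did not pass. Of 14 tested, 2 rose, 10 fell and 2 did not pass, with a median of −0.34. Without vehicle replicate 1 the lower count was 6, and without vehicle replicate 2 or TGF-β1 replicate 2 the higher count was 1. Acsl1, which activates fatty acids to acyl-CoA, fell from 16.2 ± 1.63 to 8.89 ± 1.43 CPM (log2 ratio −0.87, adjusted p = 0.000704). Cpt1a, the entry enzyme of mitochondrial fatty acid oxidation, went from 93.6 to 66.7 CPM and was lower (log2 ratio −0.49, adjusted p = 0.000154). The 2 that rose were Angptl4, given above, and the scarce Cpt1b, from 0.587 to 1.93 CPM (log2 ratio 1.76, adjusted p = 0.0395). Cpt1b is uncertain, as it shares 2744 exon bases on the same strand with the more abundant Gm44502. The fat cell targets Pck1 and Plin4 had 0 counts in every library.

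Fgf10, Tcf21 and Pdgfra, genes that mark lipofibroblasts or act in their development, also fell. Fgf10, a growth factor for the alveolar epithelium, was at 39.1 and 48.5 CPM with vehicle and 9.67, 7.71 and 10.5 CPM with TGF-β1 (log2 ratio −2.24, adjusted p = 9.73e-07). Tcf21, a transcription factor of the lipofibroblast lineage, fell from 12.3 ± 0.948 to 2.74 ± 0.860 CPM (log2 ratio −2.16), and Pdgfra, the PDGF receptor of alveolar fibroblasts, from 177 ± 5.12 to 43.6 ± 1.38 CPM (log2 ratio −2.02). Of the 7 tested genes of this list 2 rose, 3 fell and 2 did not pass, with a median of −0.15, and Pthlh, the epithelial signal for lipofibroblasts, had 0 counts in every library.

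**Figure D3:**
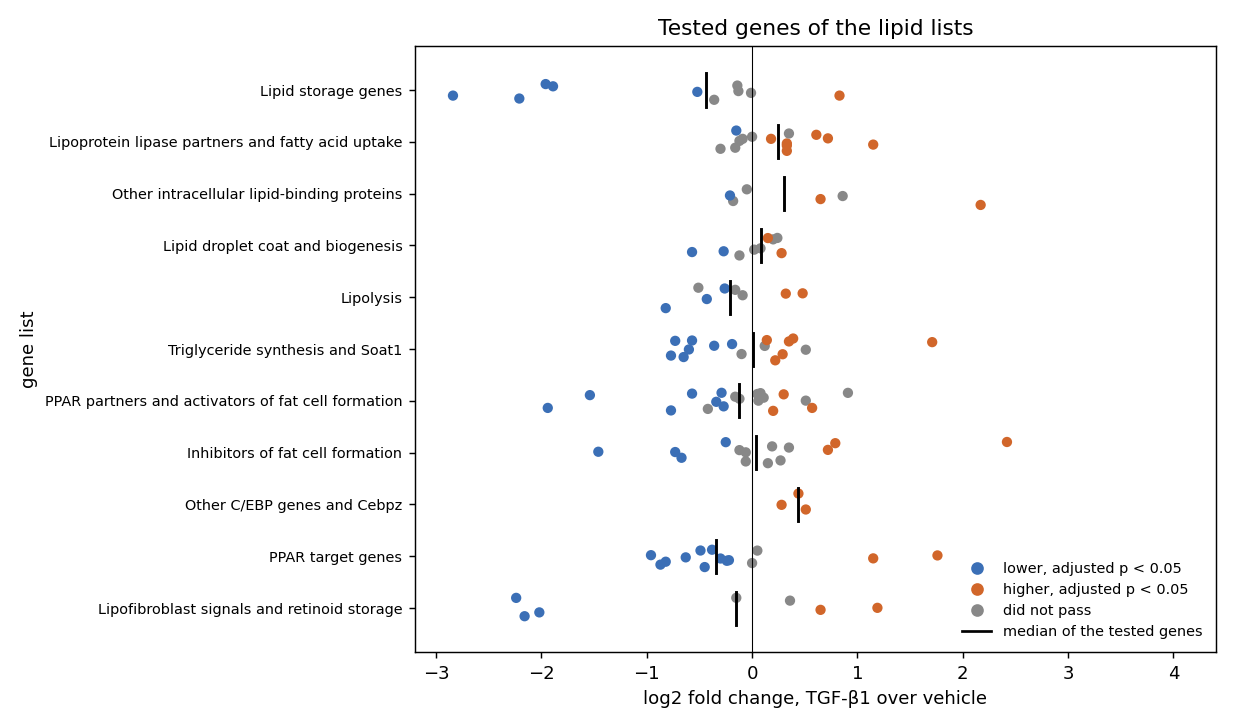
Log2 fold change, TGF-β1 over vehicle, of the tested genes of the 10 lipid storage genes and of 10 related lists (one row per list, points coloured by call, black bar the median; vertical spread within a row carries no meaning). The lipid storage genes have a median of −0.44 and reach −2.84, the PPAR targets have a median of −0.34, and the lipoprotein lipase partners have a median of 0.25.

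Per kilobase of the longest coding transcript, the order of levels changed between the groups. With vehicle Cebpb was highest at 153 ± 0.575 CPM per kilobase, then Plin2 at 67.3 ± 0.496, Fabp5 at 28.5 ± 1.304, Lpl at 21.4 ± 0.712 and Cebpd at 21.1 ± 2.04, the last pair overlapping. Cd36 at 10.8 ± 0.856 and Cebpa at 6.36 ± 0.192 followed, and Fabp4 at 1.41 ± 0.302, G0s2 at 1.247 ± 0.167 and Pparg at 0.687 ± 0.244 were lowest, with Fabp4 and G0s2 overlapping. With TGF-β1 Plin2 was at 119.8 ± 4.57 and Cebpb at 107 ± 12.1 CPM per kilobase, and these overlapped. Cebpa at 6.31 ± 0.497 now stood above Cebpd at 5.68 ± 0.139, Lpl at 2.99 ± 0.283 and Cd36 at 2.34 ± 0.206, and Fabp4 was last at 0.357 ± 0.158, overlapping Pparg at 0.534 ± 0.0328. The transcript in use in these cells is not known, so the order of close neighbours depends on the length chosen.

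**Figure D4:**
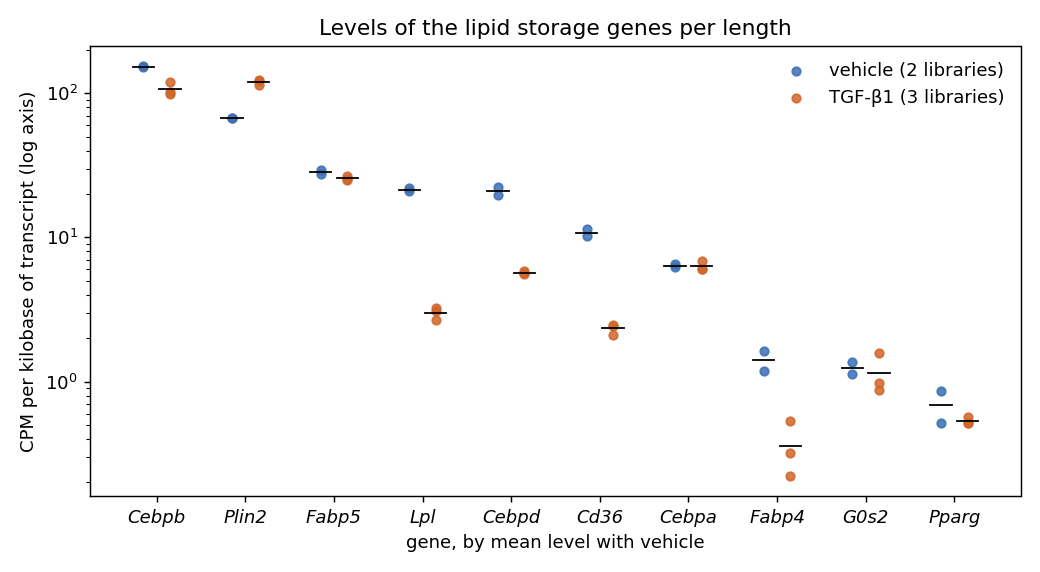
Level of the 10 lipid storage genes in CPM per kilobase of transcript (log axis), ordered by the vehicle mean, with each library as a point and the group mean as a bar. Lpl and Cebpd, side by side at 21.4 and 21.1 with vehicle, lie at 2.99 and 5.68 with TGF-β1, and Plin2 and Cebpb approach each other.

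Over the 5 libraries, the log2 CPM of Lpl was most like that of Rcan2, Magi3 and Tcf19 (Pearson r of 0.9999, 0.9999 and 0.9998, of 10921 genes with a mean of at least 5 CPM). As the 5 points fall into 2 groups, 638 genes reached an r of 0.99 with Lpl. Rcan2 fell from 24.0 ± 0.577 to 4.09 ± 0.386 CPM (log2 ratio −2.55), and Magi3 and Tcf19 had smaller decreases of −0.96 and −0.76. Pparg was most like Adgrl1, Med16 and Sgms1 (r of 0.994, 0.993 and 0.993), which share its higher value in vehicle replicate 1 and did not pass the test. With library totals Adgrl1 and Sgms1 passed as lower (adjusted p = 0.0168 and 0.0447), and without vehicle replicate 2 Adgrl1 did (adjusted p = 0.0287).

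Markers of other cells were measured in the same libraries. Of 10 fibroblast markers, all tested, 4 were higher and 6 were lower, with a median log2 ratio of −0.71 and values from −2.23 to 0.69. Pdgfra, given above, was among the lower and the abundant Col1a1 and Col1a2, at 10220.0 and 10785 CPM with vehicle, among the higher. Their sum, carried by the collagens, was 26277 to 27267 CPM with vehicle and 33304 to 33573 CPM with TGF-β1. Fat cell markers were near absent: Adipoq, Cidec, Lep, Thrsp and Car3 had 0 counts in every library, none of the 10 was abundant enough to test, and their summed level was 0.197 to 0.262 CPM with vehicle and 0 to 0.249 CPM with TGF-β1. Macrophage markers were present, and macrophages also express Cd36, Fabp4, Lpl and Plin2. Of 12 markers 11 were tested, 2 rose, 8 fell and 1 did not pass, none was at 0 in all libraries, and their sum was 2393 to 2463 CPM with vehicle and 1493 to 1523 CPM with TGF-β1. Most of it was Lyz2, from 1994.5 ± 49.4 to 1137 ± 11.7 CPM (log2 ratio −0.81), while Csf1r went from 163 ± 0.118 to 142 ± 6.76 CPM (−0.20), Marco from 18.5 ± 1.51 to 3.41 ± 0.409 CPM (−2.44) and Itgax from 4.69 ± 0.752 to 32.6 ± 1.78 CPM (2.80). These 4 were picked after their values were seen, and Csf1r overlaps Hmgxb3 on the opposite strand.

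Endothelium, which also expresses Cd36, Fabp4 and Lpl-anchoring Gpihbp1, was barely represented, with a summed marker level of 9.63 to 11.7 CPM with vehicle and 9.80 to 11.6 CPM with TGF-β1, and 0 of 6 tested markers passed by edgeR (0 also at an unadjusted p under 0.05, and 0 by DESeq2 and limma-voom). Epithelial markers summed to 85.4 to 90.7 CPM and 80.7 to 84.7 CPM, nearly all Krt8 and Krt18, with 6 of 10, Sftpc and Nkx2-1 among them, at 0 counts. Of the 3 tested 1 was higher and 1 was lower, and the lower count was 0 without vehicle replicate 1, vehicle replicate 2 or TGF-β1 replicate 2. All 10 mesothelial markers were lower, with a sum of 1537 to 1628 CPM with vehicle and 206 to 234 CPM with TGF-β1. The part of fibroblast types, macrophages and mesothelial cells in the decreases of Lpl, Cd36, Fabp4, Cebpd and Cebpb was not tested.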

How the data were processed

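Messenger RNA of 5 libraries was sequenced, 2 vehicle and 3 TGF-β1, grouped by their titles. The authors deposited whole-number counts per Ensembl gene ID. The submitters' processing notes name STAR 2.5.3a, StringTie 1.3.1c and mm10; for the counting tool, strand setting and annotation release the sources used here give nothing. Of 55335 IDs, 55154 matched GENCODE M21 (GRCm38).

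Genes were filtered with filterByExpr, scaled with TMM and tested with edgeR 4.0.16 (quasi-likelihood F test on group, two-sided, Benjamini-Hochberg over 16380 genes, threshold 0.05) in R 4.3.3. SE is the absolute log2 fold change over the root of F. An exact permutation of 2 against 3 cannot go below p = 0.1. Log2 CPM used a prior count of 2. Near-identical copies were sought with BLAST 2.17.0. Alternatives used DESeq2 1.42.0, limma 3.58.1, other scalings and filters, the replicate number as a block, and each library left out. On simulated counts for this comparison (16380 genes) edgeR recovered 14 of 50 genes changed 1.25-fold, 29 of 50 at 1.5-fold, 38 of 50 at 2-fold and 45 of 50 at 4-fold, with 17 false calls.

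Members and lists were chosen with earlier results of these data known. Named genes were the 10 members, up to 3 genes per list (adjusted p under 0.05, mean of at least 5 CPM, by size of change), the 3 genes nearest to Lpl and Pparg, and treatment checks; others given with a value were chosen after their values were seen. A symbol with 2 IDs (Ddit3) was taken from the longer gene model. Some genes that the rule names are not reported here.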

Additional observations from a re-analysis of the deposited data

How the results depend on the processing

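Of the 10 lipid storage genes, 1 was higher in all 12 alternatives and 4 to 6 were lower: 6 with library totals, where Fabp5 passed, 4 without vehicle replicate 2, where Fabp4 was lost, and 5 in the other 10. Leaving out single libraries gave 4 to 5 lower and 1 higher, with 2620 to 3623 genes higher and 2813 to 3881 lower over all genes; a lone vehicle library is taken to vary as the treated ones do. With library totals the median of all genes shifted to −0.10, 2325 genes were higher and 4921 lower (32.1% of calls higher, against 47.9% with TMM), and 3 lipase partners were lower. Without the low-count filter and under the block 0 lipase partners were lower; without that filter 0 partners of PPARγ and 1 PPAR target were higher, and DESeq2 gave 1 higher among those partners.

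Some genes that did not pass with all 5 libraries changed sign when 1 library was left out. Fabp5, which did not pass either, kept its sign (−0.19 to −0.10). Pparg ranged from −0.68 (without vehicle replicate 2) to 0.05 (without vehicle replicate 1). Cebpa ranged from −0.08 (without TGF-β1 replicate 3) to 0.03 (without TGF-β1 replicate 1), and was 0.02 without vehicle replicate 1 or TGF-β1 replicate 2. G0s2 ranged from −0.43 (without TGF-β1 replicate 1) to 0.04 (without TGF-β1 replicate 2), and was 0.02 without vehicle replicate 2. Without vehicle replicate 2 and 1 in turn, Adgrl1 was at −0.18 (where it passed) and 0.01, Med16 at −0.13 and 0.02, and Sgms1 at −0.11 and 0.02. The cause was not tested. Replicate numbers 1 and 2 occur in both groups, but over all genes same-numbered libraries did not deviate together (correlations of 0.0159 and 0.0161). The deviations of the 2 vehicle libraries mirror each other, so these values cannot tell whether same-numbered libraries share an animal, dish or day. With the replicate block 5 of the 10 genes were lower and 1 higher, with 3538 genes higher and 3727 lower in all. Ddit3 also missed the threshold in 4 alternatives that kept all libraries. Pparg, Fabp4 and G0s2 had the lowest counts and the widest intervals of the 10.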

Other observations

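Further genes of fat cell formation, chosen after their values were seen, moved in the same libraries. Wnt10b, a secreted WNT ligand that inhibits fat cell formation, rose from 0.729 ± 0.0782 to 3.92 ± 0.623 CPM (SD, n = 2 and 3; log2 ratio of TGF-β1 over vehicle 2.42, adjusted p = 3.4e-05 by edgeR). Pth1r, the receptor for the epithelial signal Pthlh, rose from 7.74 ± 1.13 to 17.7 ± 0.955 CPM (log2 ratio 1.19). Klf15, a promoter of fat cell formation, fell from 1.69 ± 0.308 to 0.435 ± 0.185 CPM (log2 ratio −1.94, adjusted p = 0.00282), and the inhibitor Klf3 fell from 158 ± 4.45 to 99.04 ± 9.55 CPM (log2 ratio −0.67).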
